A study of Homo sapiens with 30 samples.

Results

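The collagen genes of MDA-MB-231 cells are described here from ChIP-seq peak lists. They are the protein-coding genes of the GENCODE annotation on GRCh37 whose symbol reads COL, digits, A, digits, and there were 44 of them among 20098 protein-coding genes. MDA-MB-231 is an established triple-negative breast cancer line of mesenchymal character. Parental cells were profiled for SAP30, which belongs to the SIN3 corepressor complex, and for its scaffolds SIN3A and SIN3B. Both parental cells and the SAP30-KO1 line were profiled for RNA polymerase II (Pol II), for H3K4me3, the trimethylation of lysine 4 of histone H3 found at active promoters, and for H3K9Ac, the acetylation of lysine 9 found at active promoters and enhancers. SAP30-KO1 was made with CRISPR/Cas9, and the study's methods describe it as several single knockout cells grown and mixed, so it is not 1 clone. Each of the 9 groups held 2 libraries, 18 in all. Nothing in the labels says that the 2 came from separate cultures, so p-values measure only the spread between these libraries.

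Collagens are the triple-helical proteins of the extracellular matrix. Fibrillar collagens build the fibers of connective tissue, network-forming type IV collagens build basement membranes, and FACIT, transmembrane and multiplexin collagens decorate fibers, anchor cells or release antiangiogenic fragments. Most collagen is made by fibroblasts and other mesenchymal cells, while carcinoma cells express subsets of the chains. Several collagen genes lie head to head in pairs that share 1 promoter, and long introns are typical of the family.

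For each gene the best peak summit within 1000 bp of an annotated start site was taken in each list. A summit is the base of highest enrichment that MACS2, run by the authors, gave for a peak. Its rank is given as a percentage, 0% for the best-scored summit of its list and 100% for the last, so a lower percentage is a stronger peak relative to the other peaks of that library. The lists held between 10861 (SIN3A) and 54622 (H3K9Ac) summits. Sequencing depth is unknown, and a missing summit says only that no peak passed the authors' threshold. Peak names of the Pol II lists carry the number 20, and those of the H3K4me3 lists 20perc. What this means and which control each list was called against are not given in the sources used here, and both bear on ranks and lost summits of these marks. As a check of the line, the promoter of VIM, the mesenchymal filament protein, had Pol II ranks of 0.26% and 0.304% in parental cells. The hormone receptor genes ESR1 and PGR had no Pol II summit in either parental library but carried H3K4me3 in both (ESR1 at 59.0% and 61.6%, PGR at 66.2% and 65.9%), and ERBB2 had one in both, at 47.9% and 38.0%. SAP30 itself kept a Pol II summit at its promoter in both SAP30-KO1 libraries, at 3.75% and 23.9%, which does not test the deletion because no SAP30 library of SAP30-KO1 was analysed here.

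The first set holds promoters, from 250 bases before to 50 after the annotated start, in the direction of transcription on GRCh37. COL4A1 and COL13A1 are shown because their SAP30 summits ranked best, and COL1A2, a chain of type I fibers, because it had no summit in any library. Capitals mark the strings TATAAA (as in a TATA box), CCAAT (as in a CCAAT box) and GGGCGG (as in a GC box), each searched on both strands. They were marked anywhere in the window, so a marked string need not be a working element. The TATAAA of COL13A1 lies near the upstream end of its window, far from the start. COL4A1 lies at chr13:110959455-110959754 on the minus strand, COL13A1 at chr10:71561412-71561711 and COL1A2 at chr7:94023957-94024256, both on the plus strand.
COL4A1 promoter: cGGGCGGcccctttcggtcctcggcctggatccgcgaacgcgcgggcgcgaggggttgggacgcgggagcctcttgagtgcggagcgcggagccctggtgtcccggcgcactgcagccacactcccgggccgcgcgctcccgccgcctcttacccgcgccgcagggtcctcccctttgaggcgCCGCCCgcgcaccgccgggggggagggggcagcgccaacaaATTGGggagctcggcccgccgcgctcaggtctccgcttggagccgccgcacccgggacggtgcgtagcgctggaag
COL13A1 promoter: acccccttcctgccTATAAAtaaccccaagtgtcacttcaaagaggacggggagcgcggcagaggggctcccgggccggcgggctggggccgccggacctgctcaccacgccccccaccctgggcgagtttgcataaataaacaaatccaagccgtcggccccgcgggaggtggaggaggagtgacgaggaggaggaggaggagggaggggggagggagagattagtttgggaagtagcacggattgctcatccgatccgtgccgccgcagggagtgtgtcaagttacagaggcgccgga
COL1A2 promoter: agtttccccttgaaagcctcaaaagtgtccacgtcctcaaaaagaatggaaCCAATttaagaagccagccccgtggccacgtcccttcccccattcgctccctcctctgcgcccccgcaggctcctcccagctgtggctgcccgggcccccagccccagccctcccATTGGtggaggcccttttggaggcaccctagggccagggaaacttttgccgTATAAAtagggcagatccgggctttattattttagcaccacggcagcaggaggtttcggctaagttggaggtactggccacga
COL4A1 had 45 CpG dinucleotides in these 300 bases and COL13A1 had 22, against 12 in COL1A2. The GC content was 76.7% in COL4A1, 64.0% in COL13A1 and 58.7% in COL1A2. CpG content did not divide the family cleanly, since the promoter of COL15A1, without any promoter summit, had 45 CpG. That of COL19A1, whose SAP30 rank was among the 5 best, had 11. These windows were set at a single start of each gene, while summits were matched to any of its starts. The 300 bases centered on the SAP30 summit of COL19A1 in replicate 1 held 46 CpG.

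Each of the 6 targets was found at a smaller share of collagen genes than of all genes. A SAP30 promoter summit was present in both replicates at 16 of the 44, or 36.4%, against 61.2% of all protein-coding genes. SIN3B was present in both replicates at 8 collagen genes, 18.2%, against 51.7% of all genes. SIN3A was present at 3, or 6.82%, against 31.5%. In parental cells Pol II was found in both libraries at 12 collagen genes (27.3%, against 57.7%), H3K4me3 at 18 (40.9%, against 63.8%) and H3K9Ac at 15 (34.1%, against 61.4%). These shares are descriptions of the family, and no test was made of them.

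**Figure D1:**
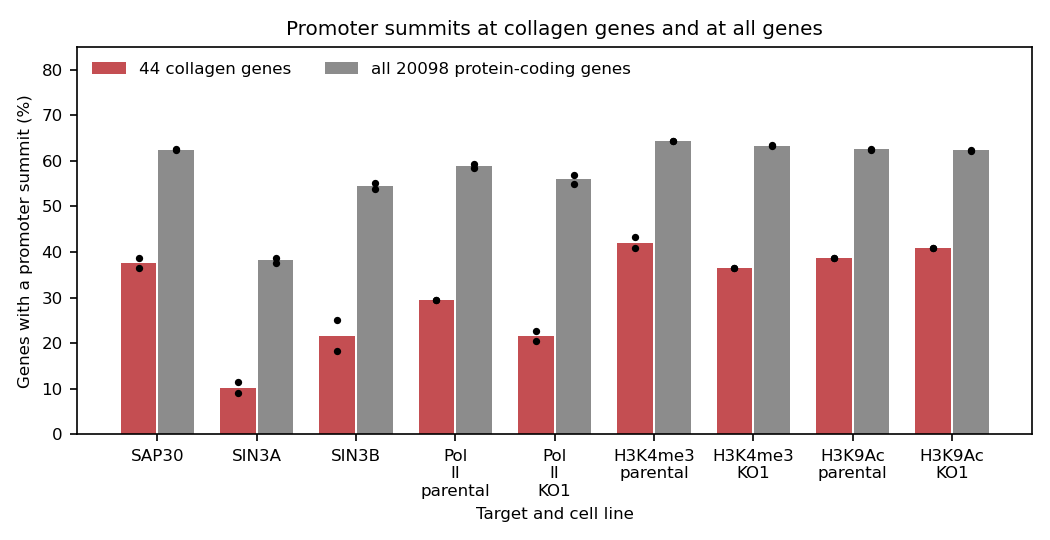
Share of genes with a promoter summit (%, y axis) for each target and cell line (x axis), for the 44 collagen genes and for all 20098 protein-coding genes. Bars are means of 2 libraries and points are the libraries. In each of the 9 groups both collagen points sit below both points of all genes.

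In 23 of the 44 genes (52.3%) no summit of any target lay at a promoter in any of the 18 libraries, against 32.2% of all genes. Among the 11 fibrillar genes these were COL1A2, COL2A1, COL3A1, COL5A2, COL5A3 and COL11A1. COL1A2, COL3A1 and COL5A2 encode chains of the main fibers of skin and stroma, and COL2A1 and COL11A1 encode chains of cartilage. Of the 5 genes of beaded filaments, COL6A3, COL6A5 and COL6A6 had none. Of the 10 FACIT genes, COL9A1, COL9A3, COL14A1, COL16A1, COL20A1, COL21A1 and COL22A1 had none. The remaining genes without a summit were COL10A1 of the hexagonal networks, the transmembrane collagens COL17A1, COL23A1 and COL25A1, the multiplexin COL15A1, and COL26A1 and COL28A1. None of the 6 basement membrane genes was without a summit. Some of the 23 had summits farther out. Within 3000 bp of a start site, COL2A1 and COL9A3 had SAP30 in both replicates. In both parental libraries COL2A1, COL11A1 and COL14A1 had H3K4me3 there, and COL2A1, COL9A3 and COL14A1 had H3K9Ac.

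**Figure D2:**
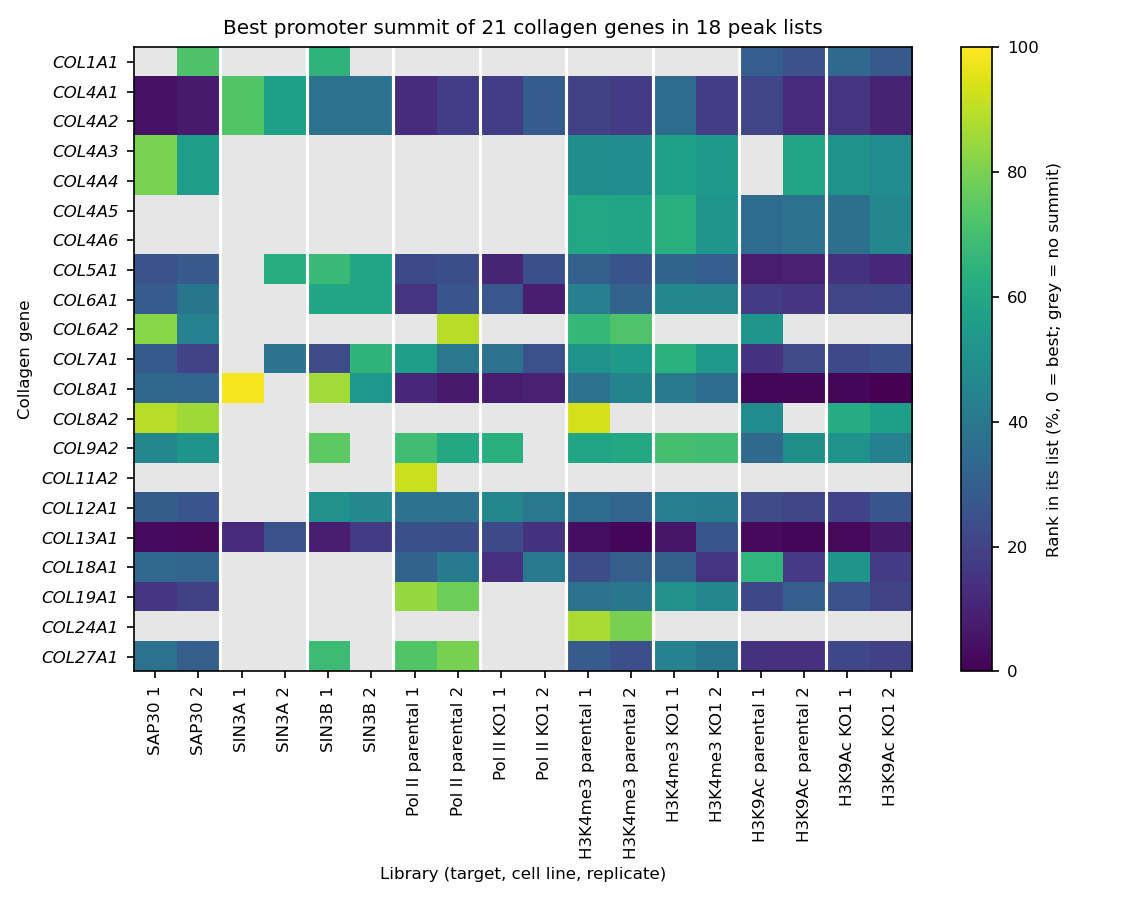
Rank of the best promoter summit (color, %, 0 is best) for the 21 collagen genes with a summit in at least 1 library (rows) in the 18 libraries (columns). Grey cells have no summit. COL4A1, COL4A2 and COL13A1 are the 3 rows with no grey cell.

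SAP30 ranked best at COL13A1, which encodes a transmembrane collagen of cell adhesion sites, at 2.99% and 2.40% in the 2 libraries. The shared promoter of COL4A1 and COL4A2, which encode the ubiquitous chains of the basement membrane network, followed with 5.06% and 7.20%. The start sites of this pair lie 101 bp apart and the same summits served both genes. COL19A1, a FACIT collagen, ranked at 15.2% and 19.9%, and COL7A1, which forms the anchoring fibrils of skin, at 28.5% and 20.4%. The median SAP30 rank of the collagen genes with a summit was 31.6% in replicate 1 and 32.5% in replicate 2. Over all genes with a SAP30 summit it was 17.1% and 17.6%.

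SIN3 proteins were present at only part of the SAP30-bound collagen promoters. Of the 16 genes with SAP30 in both replicates, 8 also had SIN3B in both, against 82.8% of all genes with SAP30. All 3 proteins were found in both replicates at COL4A1, COL4A2 and COL13A1, which is 18.8% of the 16, against 49.3% of all genes with SAP30. COL13A1 had SIN3A ranks of 12.3% and 25.4% and SIN3B ranks of 7.89% and 17.5%. COL4A1 and COL4A2 had SIN3A at 72.7% and 57.0% and SIN3B at 37.5% and 37.8%. The other genes with SIN3B in both replicates were COL5A1 (67.2% and 58.6%), COL6A1 (58.7% and 58.6%), COL7A1 (22.9% and 65.2%), COL8A1 (86.1% and 53.2%) and COL12A1 (50.6% and 47.0%). SIN3A appeared in 1 library only at COL5A1 (62.2%), COL7A1 (38.1%) and COL8A1 (98.5%). SIN3B appeared in replicate 1 only at COL1A1 (65.2%), COL9A2 (74.9%) and COL27A1 (68.6%).

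Among collagen genes Pol II was called only where SAP30 was, when both libraries of each were required. Every one of the 12 collagen genes with Pol II in both parental libraries also had SAP30 in both. This was not particular to the family, since 11304 of all 11595 genes with Pol II in both parental libraries had it too. The 12 make up 75.0% of the 16 SAP30-bound collagen genes, against 91.9% of all SAP30-bound genes. The SAP30-bound genes without Pol II in both libraries were COL4A3, COL4A4, COL6A2 and COL8A2. Of the 18 genes with parental H3K4me3 in both libraries, 15 (83.3%) had SAP30 in both, against 93.9% of all genes with the mark. The 3 without SAP30 were COL4A5 and COL4A6, which encode chains of specialized basement membranes and share 1 promoter, and COL24A1, a fibrillar collagen. COL4A5 and COL4A6 had H3K4me3 at 59.4% and 59.1% and H3K9Ac at 35.4% and 37.5%, and no summit of Pol II, SAP30, SIN3A or SIN3B.

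COL1A1, the major chain of type I collagen, was the other partial case. It had H3K9Ac in all 4 libraries, at 29.8% and 25.4% in parental cells and 34.3% and 28.1% in SAP30-KO1, with no Pol II or H3K4me3 summit in any library. SAP30 was present there in replicate 2 only, at 72.2%. This pattern depended on the window of 1000 bp. Within 3000 bp of a start site COL1A1 had SAP30, SIN3B, parental H3K4me3 and parental H3K9Ac in both libraries. COL1A2, which encodes the partner chain of the same trimer, had no summit. COL11A2, a fibrillar chain of cartilage, had a single summit, of Pol II in parental replicate 1 at 92.0%.

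The SAP30-bound collagen promoters were richer in CpG than those of the other collagen genes, but not than promoters of all genes. In the 300 bases around the start, the 16 genes with SAP30 in both replicates had a median observed to expected CpG ratio of 0.765 and a median GC content of 72.8%. The 28 others had medians of 0.493 and 65.2%. Over all genes these CpG medians were 0.863 with SAP30, 0.342 without and 0.773 together. The lowest ratio among the SAP30-bound collagen genes was 0.496, at COL27A1. The 300 bases centered on its SAP30 summit of replicate 1, away from this start, had a ratio of 0.87. High CpG content was also found without SAP30 at the promoter, at COL25A1 (1.10), COL15A1 (1.08) and COL9A3 (0.961). None of these had a promoter summit of any target. Inside the gene, away from start sites, COL15A1 had 7 and 3 SAP30 summits in the 2 replicates and COL9A3 had 1 and 3. COL28A1, COL17A1 and COL10A1 had the lowest CpG ratios, 0.0947, 0.082 and 0.164. The motif GGGCGG was found in 13 of the 16 SAP30-bound promoters (81.2%) and in 15 of the 28 others (53.6%). Its share was 76.4% in all genes with SAP30, 36.7% in those without and 61.0% together. TATAAA was found in 3 of 16 (18.8%) and 5 of 28 (17.9%). Its share was 4.63% in all genes with SAP30 and 9.82% in all promoters together. In all genes without SAP30 the TATAAA share was close to that of the 28. CCAAT was found in 2 of 16 (12.5%) and 12 of 28 (42.9%). Its share was 36.4% in all genes with SAP30, 35.2% in those without and 35.9% together. No test was made of these shares.

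**Figure D3:**
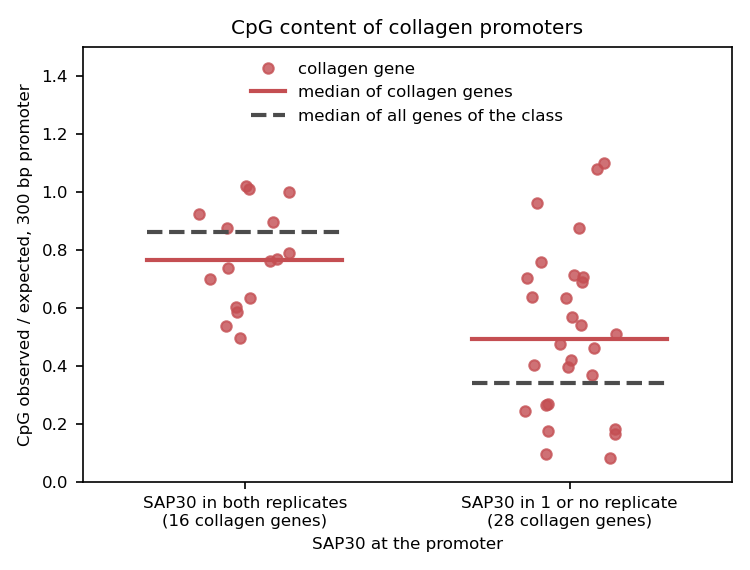
Observed to expected CpG ratio of the 300-base promoter (y axis) for collagen genes with SAP30 in both replicates and for the others (x axis). Each point is a gene, solid lines are medians of the collagen genes (0.765 and 0.493) and dashed lines are medians of all genes of the same class (0.863 and 0.342).

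The knockout comparison asked whether Pol II and the active marks at these promoters depended on SAP30. Pol II was lost at COL19A1 and COL27A1, where both parental libraries and neither SAP30-KO1 library had a summit. These are 2 of the 12 collagen genes with Pol II in both parental libraries (16.7%), against 2.33% of the 11595 genes of that kind. COL19A1 had parental Pol II ranks of 84.1% and 78.0%, and COL27A1, a fibrillar collagen, had 72.9% and 79.4%. All 4 values were toward the weak end of their lists. Both promoters kept H3K4me3 and H3K9Ac in all 4 libraries. Parental Pol II was weaker at collagen genes, with median ranks of 31.8% and 38.2%, against 27.2% and 24.8% over all genes with it. Whether genes of like rank lost Pol II as often was not tested. No collagen gene gained Pol II, against 0.337% of all genes without it in parental cells. A loss in part of the mixed cells and a weaker peak in all of them cannot be told apart in such lists.

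The 300 bases centered on the SAP30 summit of replicate 1 are shown for these 2 promoters because Pol II was lost there, on the plus strand and with the same motifs in capitals. That of COL27A1 is chr9:116918253-116918552 and that of COL19A1 is chr6:70577219-70577518.
COL27A1 summit: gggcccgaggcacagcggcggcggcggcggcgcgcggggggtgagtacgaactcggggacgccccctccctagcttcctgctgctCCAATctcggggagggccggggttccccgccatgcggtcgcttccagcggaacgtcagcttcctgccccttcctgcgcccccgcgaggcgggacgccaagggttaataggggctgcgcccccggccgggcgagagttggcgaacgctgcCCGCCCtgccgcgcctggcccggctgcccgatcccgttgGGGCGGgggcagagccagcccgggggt
COL19A1 summit: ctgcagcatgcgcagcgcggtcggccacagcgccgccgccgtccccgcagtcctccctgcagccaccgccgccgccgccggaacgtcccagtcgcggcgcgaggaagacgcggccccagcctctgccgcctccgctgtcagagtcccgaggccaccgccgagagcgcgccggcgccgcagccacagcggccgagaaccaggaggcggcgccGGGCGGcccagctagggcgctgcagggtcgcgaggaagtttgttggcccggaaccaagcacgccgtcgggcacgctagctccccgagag
Both windows had a GC content of 76.3%. They held 38 CpG in COL27A1 and 46 in COL19A1. The COL27A1 summits of SAP30 lay 586 and 526 bp from the start site. The Pol II summits of this gene lay 95 and 24 bp from it. At COL19A1 the nearest start site of LMBRD1, a gene of lysosomal cobalamin export, lay 60 bp from a COL19A1 start site, so these summits cannot be assigned to COL19A1 alone.

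H3K4me3 was lost at COL6A2 and COL24A1, 2 of the 18 collagen genes that carried it in both parental libraries (11.1%), against 1.43% of all such genes. COL6A2, a chain of the beaded filaments of type VI collagen, had parental H3K4me3 ranks of 66.5% and 72.5%, and COL24A1 had 87.2% and 79.5%. All of these were toward the weak end of their lists. Parental H3K4me3 was weaker at collagen genes in general, with median ranks of 43.5% and 42.3%, against 24.2% and 26.1% over all genes with it. The share lost among genes of like rank was not tested. COL6A2 also had Pol II in parental replicate 2 only (89.3%) and H3K9Ac in parental replicate 1 only (52.4%), and no summit of any mark in SAP30-KO1. Its SAP30 ranks were 82.3% and 44.4%. No collagen gene gained H3K4me3, against 0.299% of all genes without it, and none lost or gained H3K9Ac in both libraries, against 0.689% and 0.908%. COL9A2 and COL8A2 had partial patterns. COL9A2, a cartilage FACIT collagen, had Pol II at 69.4% and 60.4% in parental cells, at 62.9% in SAP30-KO1 replicate 1 and none in replicate 2. COL8A2 of the hexagonal network of cornea had SAP30 at 89.2% and 85.7%. Its H3K4me3 was present in parental replicate 1 only, at 93.5%, and this summit lay at another start site, 25.0 kb from the SAP30 summit of replicate 1. H3K9Ac of COL8A2 was present in parental replicate 1 (48.3%) and in both SAP30-KO1 libraries (61.9% and 56.3%).

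For the genes with a summit in all 4 libraries of a mark, ranks were compared between lines with limma on normal scores of the ranks among all such genes, with Benjamini-Hochberg adjustment over all of them. No collagen gene passed an adjusted p of 0.05 for any mark. For Pol II, 9 collagen genes at 8 distinct promoters were fitted. For H3K4me3 there were 16 at 13 promoters, and for H3K9Ac 15 at 13 promoters. Over all genes the test called 0.0% of 10706 for Pol II, 0.335% of 12531 for H3K4me3 and 0.0083% of 12048 for H3K9Ac. At an unadjusted p under 0.05 there were 994, 1094 and 1037 genes, among them 0, 2 and 0 collagen genes. In simulated libraries every gene was given the same spread, pooled over the real genes of the mark. There the fit found all 100 changes of 3.0 in each mark. Of 100 changes of 1.0 it found 7, 5 and 22 for Pol II, H3K4me3 and H3K9Ac. Changes of about 1.0 or less on this scale were thus mostly missed at that pooled spread with 2 libraries per line. The real spread differed between genes. For H3K4me3 the standard error of the collagen genes ran from 0.121 (COL9A2) to 0.649 (COL13A1), so the simulation gives no limit for a single gene.

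For H3K4me3 no collagen gene passed the test, and the values are given as a description. Percentages are ranks in whole lists of different length (24079 and 22393 summits in parental cells, 20735 and 23350 in SAP30-KO1), while normal scores compare the fitted genes with each other. The mean rank was worse in SAP30-KO1 at 12 of 16 genes, with a median change of 7.70 percentage points, against 2.09 over all 12531 genes, of which 62.0% had a worse mean rank. The normal score was lower at the same number of collagen genes, 12, with a median difference of -0.155 against -0.011 over all genes tested. At 8 of the 16 both SAP30-KO1 ranks were worse than both parental ranks, against 28.1% of all genes, and at none were both better, against 11.5%. The 8 were COL4A3, COL4A4, COL6A1, COL9A2, COL12A1, COL13A1, COL19A1 and COL27A1. COL4A3 and COL4A4 share 1 promoter, so they are not separate observations.

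COL27A1 had the largest difference in percentage points, 14.9. Its H3K4me3 ranks were 28.9% and 24.3% in parental cells and 44.3% and 38.8% in SAP30-KO1. The 2 lines did not overlap. Its normal score was lower, with a difference of -0.594 and a standard error of 0.207 (limma, adjusted p = 0.378). COL13A1 had H3K4me3 at 3.90% and 1.94% in parental cells and at 6.12% and 26.8% in SAP30-KO1, so most of its difference came from 1 library. Its normal score difference, -1.02 with a standard error of 0.649, was larger than that of COL27A1 and less certain (adjusted p = 0.711 by limma). COL19A1 went from 37.1% and 39.4% to 50.5% and 46.7% (adjusted p = 0.526 by limma). At these 3 genes the lines did not overlap, and none passed the adjusted test.

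For Pol II too no gene passed, and ranks differed in both directions between lists of 20736 and 23002 summits in parental cells and 23342 and 22123 in SAP30-KO1. Both SAP30-KO1 ranks were worse at COL4A1, COL4A2 and COL12A1, 3 of 9 genes (33.3%) against 24.2% of all genes. The shared promoter of COL4A1 and COL4A2 went from 12.6% and 18.4% to 18.4% and 29.1%, and its closest values in the 2 lines, 18.384% and 18.418%, were nearly equal. COL12A1, a FACIT collagen of dense connective tissue, went from 38.1% and 38.2% to 45.9% and 40.1%, with a normal score difference of -0.024 and a standard error of 0.471 (limma, adjusted p = 0.993). Both ranks were better at COL7A1 and COL13A1 (22.2%, against 15.4% of all genes). COL7A1 went from 56.0% and 40.0% to 37.8% and 24.8%, a normal score higher by 0.913 with a standard error of 0.480 (limma, adjusted p = 0.576). COL13A1 went from 24.5% and 24.0% to 22.5% and 14.1%. The median change over the 9 genes was -3.09 percentage points, toward better ranks, and 1.48 over all 10706 genes.

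The other Pol II genes overlapped between lines. COL8A1, a network collagen of vessel walls and endothelium, had 10.9% and 7.41% in parental cells and 8.18% and 9.32% in SAP30-KO1. COL5A1, a regulator of fibril diameter, had 22.6% and 23.9%, then 10.2% and 24.3%. COL6A1, the partner of COL6A2 in type VI collagen, had 15.1% and 26.5%, then 27.1% and 8.29%. COL18A1, the multiplexin that holds the endostatin fragment, had 31.8% and 40.8%, then 13.6% and 40.4%. In each of these 4 genes the 2 SAP30-KO1 libraries differed from each other by more than the means of the lines did.

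H3K9Ac was present in all 4 libraries at 15 collagen genes. Its ranks were worse in both SAP30-KO1 libraries at COL5A1, COL6A1 and COL27A1 (20.0% of 15, against 22.1% of all genes) and better in both at none (against 16.4%). COL27A1 went from 14.1% and 13.3% to 21.2% and 19.2% (adjusted p = 0.691 by limma). COL6A1 went from 17.7% and 15.7% to 20.9% and 21.8%, and COL5A1 from 7.98% and 9.25% to 14.7% and 11.3%. COL8A1 stayed at the top of the lists, with 1.19% and 1.45% in parental cells and 1.70% and 0.359% in SAP30-KO1. COL13A1 had 2.65% and 1.80%, then 2.14% and 6.50%. The median change was 3.56 points over the 15 collagen genes and 0.309 over all genes. At COL18A1 the ranks were 65.7% and 16.8% in parental cells and 51.9% and 17.9% in SAP30-KO1. Its best summit lay at other places in the libraries, 392 and 978 bp from a start site in parental cells and 321 and 668 bp in SAP30-KO1.

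**Figure D4:**
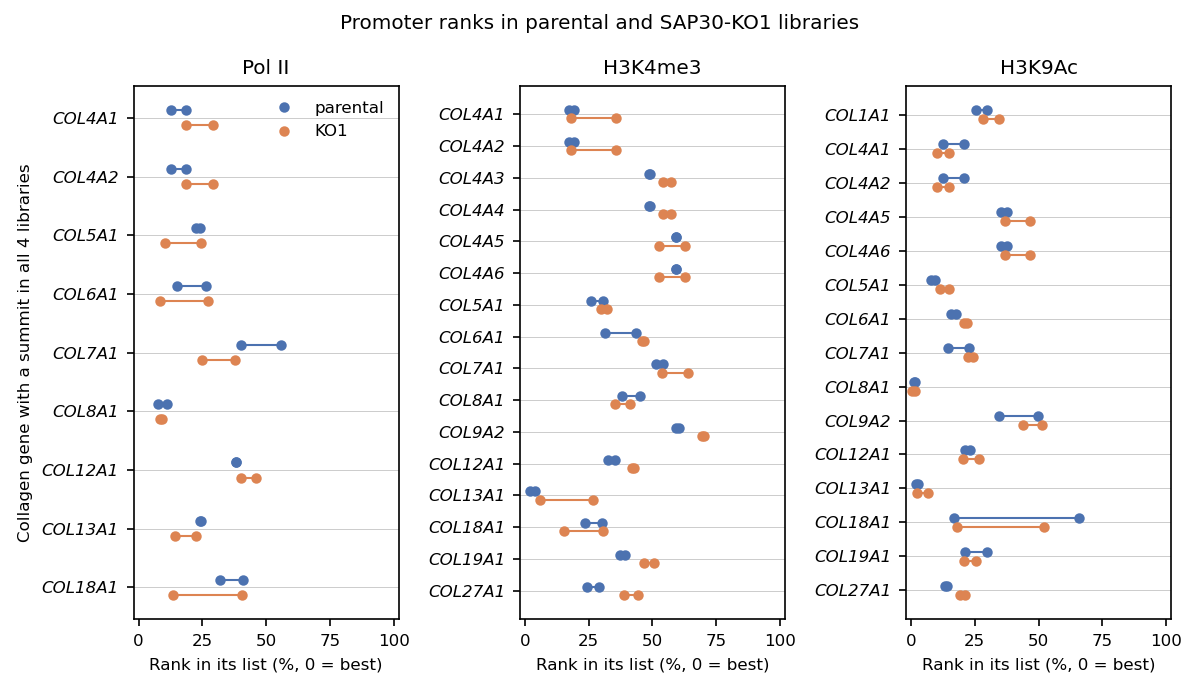
Rank of the best promoter summit (x axis, %, 0 is best) of Pol II, H3K4me3 and H3K9Ac at the collagen genes with a summit in all 4 libraries (y axis). Each point is a library, blue for parental and orange for SAP30-KO1, and lines join the 2 libraries of a line. For H3K4me3 the orange pair lies to the right of the blue pair at 8 of 16 genes.

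Further values of the genes named above follow. COL4A1 and COL4A2 had H3K4me3 at 19.4% and 17.4% in parental cells and 35.5% and 18.2% in SAP30-KO1, with H3K9Ac at 20.8% and 12.4%, then 14.9% and 10.0%. COL5A1 had SAP30 at 25.4% and 28.0%, and H3K4me3 at 30.6% and 26.0%, then 32.2% and 29.7%. COL6A1 had SAP30 at 28.7% and 39.0%, and H3K4me3 at 43.5% and 31.4%, then 46.8% and 46.1%. None of these H3K4me3 pairs except that of COL6A1 was separated between the lines.
COL7A1 had H3K4me3 at 51.3% and 54.1%, then 63.9% and 53.9%, and H3K9Ac at 14.5% and 22.9%, then 22.3% and 24.3%. COL8A1 had SAP30 at 33.7% and 32.7%, and H3K4me3 at 38.3% and 45.2%, then 41.3% and 35.2%. COL9A2 had SAP30 at 46.4% and 51.9%, H3K4me3 at 59.1% and 60.5%, then 70.3% and 69.3% (a normal score difference of -0.168), and H3K9Ac at 34.7% and 49.8%, then 51.4% and 43.9%. The H3K4me3 values of COL9A2 were separated between the lines and those of COL8A1 overlapped.
COL12A1 had SAP30 at 29.5% and 26.4%, H3K4me3 at 35.4% and 32.6%, then 42.9% and 42.0%, and H3K9Ac at 23.2% and 21.0%, then 20.2% and 26.7%. COL18A1 had SAP30 at 34.6% and 32.5%, and H3K4me3 at 23.7% and 30.1%, then 30.7% and 15.3%. COL19A1 had H3K9Ac at 21.2% and 29.9%, then 25.5% and 20.6%, and COL27A1 had SAP30 at 37.2% and 30.3%. COL4A3 and COL4A4, whose chains form the glomerular basement membrane with COL4A5, had SAP30 at 79.9% and 55.8% and H3K4me3 at 49.0% and 48.7%, then 57.4% and 54.2%. Their H3K9Ac was present in parental replicate 2 only (59.0%) and in both SAP30-KO1 libraries (51.1% and 48.6%). COL4A5 and COL4A6 had H3K4me3 at 62.7% and 52.4% and H3K9Ac at 37.0% and 46.7% in SAP30-KO1.

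Inside the genes, away from start sites, a large part of the SAP30 summits of the family lay in a few genes. The gene body was taken as the gene without the 1000 bp on each side of any annotated start site. Collagen genes are long, with a median body of 143.0 kb against 24.6 kb for all protein-coding genes. SAP30 body summits in both replicates were found in 18 of 44 collagen genes (40.9%), against 21.6% of all genes, but per length there was no such contrast. The density was 0.942 and 0.912 summits per 100 kb in the 2 libraries (0.927 ± 0.0215, SD, n = 2), against 0.957 and 0.905 over all genes.

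COL4A2 and COL13A1 held 28 of the 62 body summits of replicate 1 (45.2%) and 26 of the 60 of replicate 2 (43.3%), on 5.47% of the summed body length. The 42 other collagen genes together had a density of 0.547 per 100 kb in each replicate. COL4A2 had 15 and 14 SAP30 body summits, 7.46 and 6.96 per 100 kb, and COL13A1 had 13 and 12, or 8.18 and 7.55. Such densities were not limited to these genes. Shorter genes with few summits reached them too, among them COL9A2 (3 and 2 summits, 19.0 and 12.7 per 100 kb) and COL2A1 (2 and 3, or 6.56 and 9.83). In COL4A2, 12 of the 15 summits of replicate 1 had a summit of replicate 2 within 1000 bp, and in COL13A1 12 of 13 did. COL15A1, a multiplexin of basement membrane zones with no promoter summit, had 7 and 3, COL27A1 had 4 and 5, and COL5A1 had 2 and 5. The best-ranked body summit was at 23.8% in COL4A2 and 30.6% in COL13A1 in replicate 1, far behind the promoters of these genes.

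**Figure D5:**
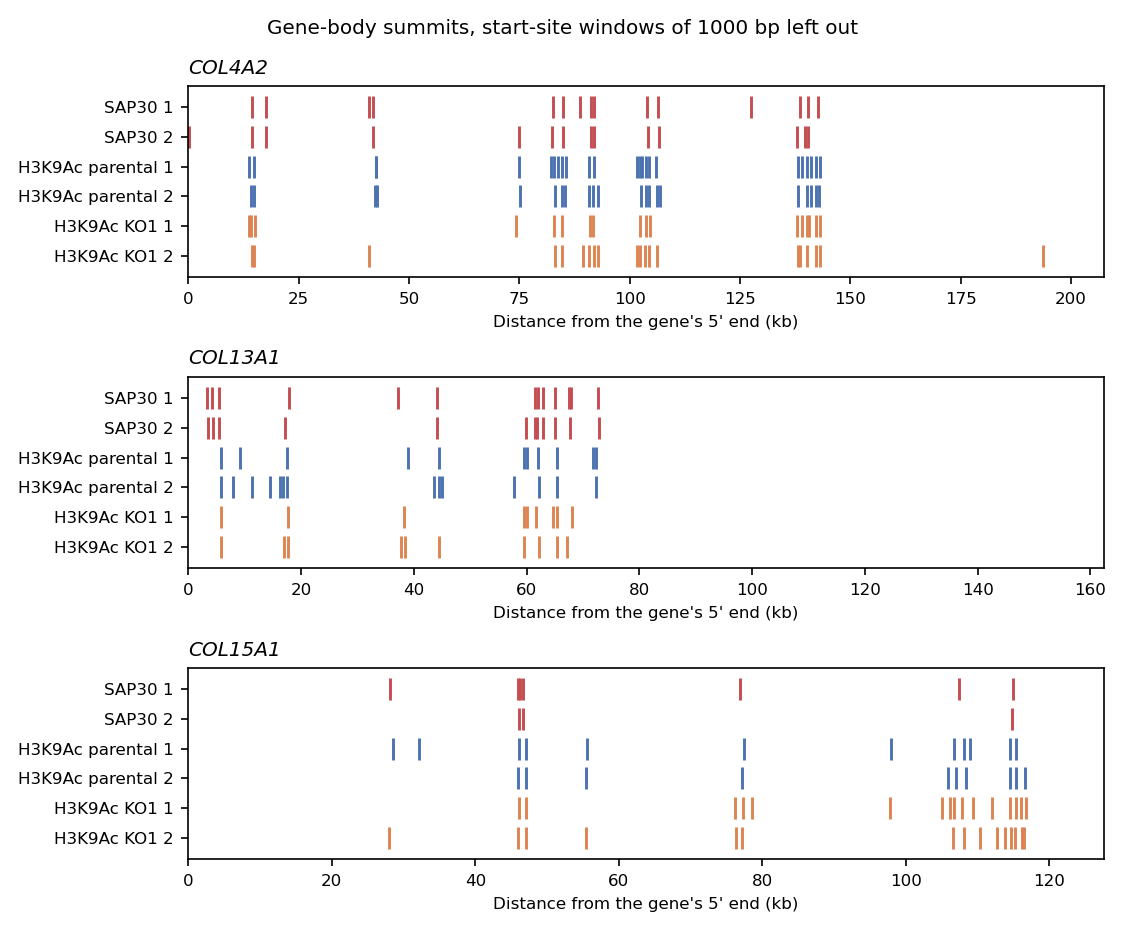
Positions of gene-body summits of SAP30 and H3K9Ac (ticks) along COL4A2, COL13A1 and COL15A1, as the distance from the gene's 5' end (x axis, kb), in each library (rows). The SAP30 and H3K9Ac summits of COL13A1 end at 72.8 kb and 72.4 kb of its 162.0 kb, and those of COL4A2 gather in clusters seen in both replicates.

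The summits were not spread evenly along these genes. In COL13A1 all SAP30 body summits lay between 3.4 and 72.8 kb from the 5' end of a gene of 162.0 kb. In COL5A1 they lay within 20.5 kb of the 5' end of a gene of 203.0 kb. In COL4A2 they extended from 0.2 to 142.7 kb of 207.0 kb, the first being a summit of replicate 2 that also lies in COL4A1. Of the 62 and 60 summits, 2 and 0 lay in an exon of the annotation (3.23% and 0.0%), while exons made up 4.15% of the body length.

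The body summits differed in sequence from the promoter summits. Windows of 300 bases centered on them had a median GC content of 53.7% and 55.3% in the 2 replicates and a CpG ratio of 0.267 and 0.274. At the best promoter summits of the collagen genes the GC content was 72.8% and 75.0% and the CpG ratio 0.811 and 0.787. The motif TGANTCA, bound by AP-1 factors, was found in 21 of 62 body windows of replicate 1 (33.9%) and 19 of 59 distinct ones of replicate 2 (32.2%). At the best promoter summits of the collagen genes it was found in 2 of 14 distinct windows (14.3%) and 2 of 15 (13.3%). Over the body summits of all genes it was found in 40.0% and 36.8%, and at the best promoter summits of all genes in 4.01% and 3.99%. The best-ranked body window of replicate 1 is shown for COL4A2 (chr13:110999812-111000111) and COL13A1 (chr10:71634216-71634515), on the plus strand, to set beside the promoters above. Capitals mark the promoter motifs and TGANTCA.
COL4A2 body summit: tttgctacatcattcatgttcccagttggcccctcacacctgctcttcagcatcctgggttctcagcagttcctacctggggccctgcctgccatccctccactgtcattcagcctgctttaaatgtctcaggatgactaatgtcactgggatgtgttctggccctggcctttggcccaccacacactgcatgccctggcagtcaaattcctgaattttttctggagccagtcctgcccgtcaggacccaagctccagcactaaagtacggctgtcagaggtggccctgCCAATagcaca
COL13A1 body summit: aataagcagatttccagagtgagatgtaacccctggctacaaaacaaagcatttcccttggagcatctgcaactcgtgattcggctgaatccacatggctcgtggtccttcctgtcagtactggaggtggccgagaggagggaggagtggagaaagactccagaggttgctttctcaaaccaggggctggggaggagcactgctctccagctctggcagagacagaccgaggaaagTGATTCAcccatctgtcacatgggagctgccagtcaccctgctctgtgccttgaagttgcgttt
They held 2 and 6 CpG, and TGANTCA occurred in the COL13A1 window and not in that of COL4A2.

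Most SAP30 body summits of the collagen genes lay in acetylated chromatin. Of those of replicate 1, 64.5% had an H3K9Ac summit of both parental libraries within 1000 bp, and 69.5% of those of replicate 2 did, against 57.6% and 58.5% over all genes. SIN3B of both libraries was as near to 19.4% and 16.9%, against 20.7% and 26.0% over all genes. SIN3A was as near to 0.0% and 0.0%, against 3.1% and 4.19% over all genes. In SAP30-KO1 the share beside H3K9Ac of both libraries was 66.1% and 71.2%, against 55.1% and 55.7% over all genes. In COL4A2, 11 of 15 and 13 of 14 SAP30 summits lay beside parental H3K9Ac, and 9 and 9 beside that of SAP30-KO1.

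H3K9Ac in the gene bodies was close to that of all genes in parental cells and differed little between lines. The parental density was 1.70 and 1.67 summits per 100 kb (1.69 ± 0.0215, SD, n = 2), against 1.68 and 1.61 over all genes. The collagen bodies held 112 and 110 summits in parental libraries and 107 and 109 in SAP30-KO1, a ratio of 0.973. Both SAP30-KO1 counts were below both parental counts, and a two-sided exact permutation test gave p = 0.333, the smallest p that 2 libraries against 2 allow. Over all genes the ratio was 0.913. The ratio of the collagen genes turned to 1.09 with lists of equal length and 1.02 with merged regions, so its direction depended on how summits were counted.

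COL4A2 had the most H3K9Ac body summits, 24 and 21 in parental cells and 17 and 20 in SAP30-KO1. COL13A1 had 11 and 14, then 9 and 10, and in both genes the lines did not overlap. COL15A1 had 12 and 10, then 16 and 15, and COL5A2, which had no SAP30 summit, had 6 and 5, then 8 and 9. In these last 2 genes both SAP30-KO1 counts were the higher ones. The lines were also separated at genes with fewer summits, among them COL19A1 (2 and 2, then 4 and 4) and COL8A2 (1 and 1, then 0 and 0). The share of all genes separated in this way is not given here. These genes were named after their counts were seen, apart from COL4A2, COL13A1 and COL15A1, and no test was made of single genes.

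When summits of the 4 libraries within 1000 bp of each other were joined into regions, the collagen bodies had 108 regions, 40 of them in all 4 libraries. Of the 50 in both parental libraries, 5 had no summit in either SAP30-KO1 library (10.0%), against 9.21% over all genes. The lost regions lay in COL4A2, COL4A6, COL8A2, COL13A1 and COL27A1. A further 6 regions were present in both SAP30-KO1 libraries alone, 5.56% of the regions against 3.09% over all genes, in COL5A2, COL6A2, COL7A1, COL13A1, COL15A1 and COL26A1. The region gained in COL13A1, at chr10:71628856-71629740, had a mean rank of 30.4%, and the one lost in the same gene, at chr10:71633426-71634006, 71.7%.

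The genes that process collagen carried these targets at shares nearer to those of all genes. Of 45 genes for chain modification and folding, secretion, propeptide cleavage, crosslinking and collagen receptors, 31 (68.9%) had SAP30 in both replicates, against 61.2% of all genes, and 27 (60.0%, against 51.7%) had SIN3B. SIN3A was present at 16 (35.6%, against 31.5%) and parental Pol II at 31 (68.9%, against 57.7%). Parental H3K4me3 was present at 36 (80.0%, against 63.8%) and parental H3K9Ac at 34 (75.6%, against 61.4%). By class, SAP30 was present at 15 of 17 genes of chain modification and folding, 5 of 5 of secretion, 3 of 8 of propeptide cleavage, 3 of 5 of crosslinking and 5 of 10 receptors. None lost or gained Pol II or H3K9Ac, and limma called none for any mark. H3K4me3 was lost at 3 of the 36 with it in both parental libraries (8.33%, against 1.43% of all such genes). They were P4HA3 (92.5% and 84.8% in parental cells) and P3H3 (66.8% and 65.1%), which encode a prolyl 4-hydroxylase and a prolyl 3-hydroxylase, and the collagen-binding integrin gene ITGA10 (93.0% and 85.7%). These ranks too were toward the weak end of their lists.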

How the data were processed

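ChIP-seq libraries were grouped by the antibody target and the cell line in the labels. The submitters' processing notes name FastQC 0.11.2, Bowtie2 2.3.3.1, Picard and MACS2 2.1.0 and the build hg19. The deposited lists hold 1-bp summits that the authors called in each library by itself, with the −log10 of a q-value as score, so weaker peaks are absent and depth is unknown. Scores were used only as ranks within a list. The 12 input and histone H3 control samples were not used here.

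Starts were those of basic transcripts in GENCODE release 44 on GRCh37. The members and gene lists were chosen with earlier results of these data known. Values in every library were given for members with Pol II in any library, with a lost or gained mark, with the 3 largest separated rank changes per mark and direction, with the 5 best SAP30 ranks and with the 5 highest counts of SAP30 body summits. Other pathway genes were counted by class and named where a mark was lost, gained or called. Rank changes were tested with limma 3.58.1 in R 4.3.3 and counts by an exact permutation test. Scripts used Python 3.11.15, and the fit and the assignment of summits were tested on simulated data. Lost means a summit in both parental and neither SAP30-KO1 library, and gained the reverse. Alternatives were other windows, start sites, list lengths and scales, either replicate, each library left out, and a replicate block. Promoter sequences came from the GRCh37 genome.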

Additional observations from a re-analysis of the deposited data

How the results depend on the processing

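Depth is unknown, so a summit missing from a list cannot be told from one below the authors' threshold, and 2 libraries per line limit every comparison. Of 157 alternative values, 136 kept the direction and stayed near the reported value, which for counts says nothing of which genes were counted. Counting shared promoters once, or leaving out members beside another protein-coding start site, both chosen after seeing the data, stayed within 1.5 times each count of genes with a target. Limited to the better-ranked 50% of each list, SIN3A remained in both replicates at 1 gene and SIN3B at 3. Pol II losses fell to 0, and the 2 H3K4me3 losses were COL4A3 and COL4A4 in place of COL6A2 and COL24A1. In the full lists COL4A3 and COL4A4 had H3K4me3 at 49.0% and 48.7% in parental cells and 57.4% and 54.2% in SAP30-KO1. Body densities with this limit were 0.19 for SAP30 and 0.578 for H3K9Ac per 100 kb. SIN3A in either replicate was found at 6 genes, and leaving out 1 library gave 4 to 5, the higher count without replicate 1. With a window of 500 bp, H3K4me3 was lost at 1 gene (COL6A2) and gained at 1 (COL27A1), whose parental summits lay 622 and 502 bp from the start. H3K9Ac was gained at 1 (COL9A2), whose parental summits lay 682 and 847 bp from the start. COL9A2 was also the 1 gain with the 5' end of the gene record as the only start. With lists of equal length H3K4me3 was lost at 1 gene (COL6A2). Leaving out 1 library, 0 to 1 genes lost H3K9Ac (COL6A2 without parental replicate 2) and 0 to 2 gained it (COL8A2 without parental replicate 1, COL4A3 and COL4A4 without parental replicate 2). The SAP30 body density was 0.961 with only the gene's own start sites left out and 0.744 with 3000 bp left out, and that of H3K9Ac 1.53 with 3000 bp. The body ratio of H3K9Ac, 0.973, turned to 1.09 with lists of equal length (exact permutation p = 0.333) and 1.02 with merged regions (exact permutation p = 1.0). Without 1 library it was 0.964 to 0.982. Where no value is given beside a change, the cause was not tested.

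With limma, 29 of 30 alternatives called 0 collagen genes, and the lowest adjusted p of a collagen gene ranged from 0.000286 to 1.0 over them. The exception was COL13A1 for H3K9Ac (adjusted p = 0.000286, 1 gene) with the 5' end of the gene record as the only start. The parental summits lay 457 and 624 bp from that base and the SAP30-KO1 summits 1013 and 1084 bp, outside the window. The numbers of the replicates did not pair the samples, since the deviations of same-numbered libraries correlated at 0.0158 (Pol II), -0.0157 (H3K4me3) and 0.00408 (H3K9Ac) across genes. With a replicate block limma called 61, 172 and 41 genes in place of 0, 42 and 1, and 0 collagen genes in each, and the mean body ratio within replicate numbers was 0.973.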
